A study of Mus musculus with 10 samples.

Results

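The 10 genes described here mark the endothelium of the intestinal wall. They are the lymphatic genes Lyve1, Prox1, Pdpn, Flt4, Ccl21a and Reln, the lymphatic growth factor gene Vegfc, and the endothelial genes Pecam1, Kdr and Cdh5. These last are called blood endothelial genes below, but lymphatic endothelium can carry them too, so they do not mark blood vessels alone. They were taken by symbol, as 11 of the 24368 rows of the deposited table. The list was put together with the cKO and WT values of these same libraries known, so its members count as selected on their fold changes, and the p-values below describe them without supporting anything further. RNA was taken from the proximal jejunum, where much dietary fat is absorbed, of 5 mice labelled HuR cKO and of 5 littermates labelled WT, with 1 library per mouse. The cKO mice carry a conditional deletion of HuR, an RNA-binding protein, in the intestinal epithelium. The sources used here do not give the promoter that drives the recombinase, nor the age, sex and diet of the mice. Endothelial cells are not the cells in which HuR is labelled as deleted.

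Each villus holds a lacteal, a blind-ended lymphatic vessel that takes up chylomicrons made by the enterocytes, beside a net of fenestrated blood capillaries. Lymphatic endothelium takes its identity from the transcription factor Prox1, and lacteals are kept up in the adult by VEGF-C acting on VEGFR-3, the product of Flt4. Blood endothelium depends on VEGF-A acting on VEGFR-2, the product of Kdr.

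Values are normalised reads, the read counts of a gene divided by 1 size factor per library. Differences are log2 fold changes of cKO over WT on log2(value + 1), fitted with limma over 14062 genes with a mean of at least 10, and adjusted p-values are by Benjamini-Hochberg over all of them. The libraries held between 16063987 and 18927440 recovered reads. The libraries cKO 3 and cKO 5 stand apart from the other 8 in several clock genes. Per2, a core clock gene, had 12.7 and 16.0 normalised reads in them and 342 to 749 in the others. Not all clock genes did so. Nr1d1 was lowest in WT 5, at 495, with 892 and 735 in cKO 3 and cKO 5. Fitted differences of the genes named are also given without cKO 3 and cKO 5 because of the clock genes that did. Because the RNA came from whole tissue, a change in the number of endothelial cells and a change in RNA per cell cannot be told apart.

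Lyve1, a hyaluronan receptor on the surface of lymphatic endothelium, was higher in every cKO library than in any WT library. It lies on the minus strand of chromosome 7 in mm10, from 110850607 to 110863239. The cKO libraries 1 to 5 had 776, 513, 1045, 1030 and 917 normalised reads of Lyve1, and the WT libraries 1, 3, 4, 5 and 6 had 224, 194, 268, 385 and 300.

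The groups did not overlap, and the lowest cKO value (cKO 2) lay above the highest WT value (WT 5). Lyve1 averaged 856 ± 220 normalised reads in cKO and 274 ± 74.0 in WT (SD, n = 5 each). The fitted rise was 3.10-fold, with a log2 fold change of 1.63 ± 0.22 (SE; limma adjusted p = 0.00272). It was 2.78-fold when cKO 3 and cKO 5 were left out (limma adjusted p = 0.0225). In the authors' deposited table Lyve1 has a log2 fold change of 1.47 and an adjusted p of 9.73e-08; which libraries entered that comparison was not checked here.

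**Figure D1:**
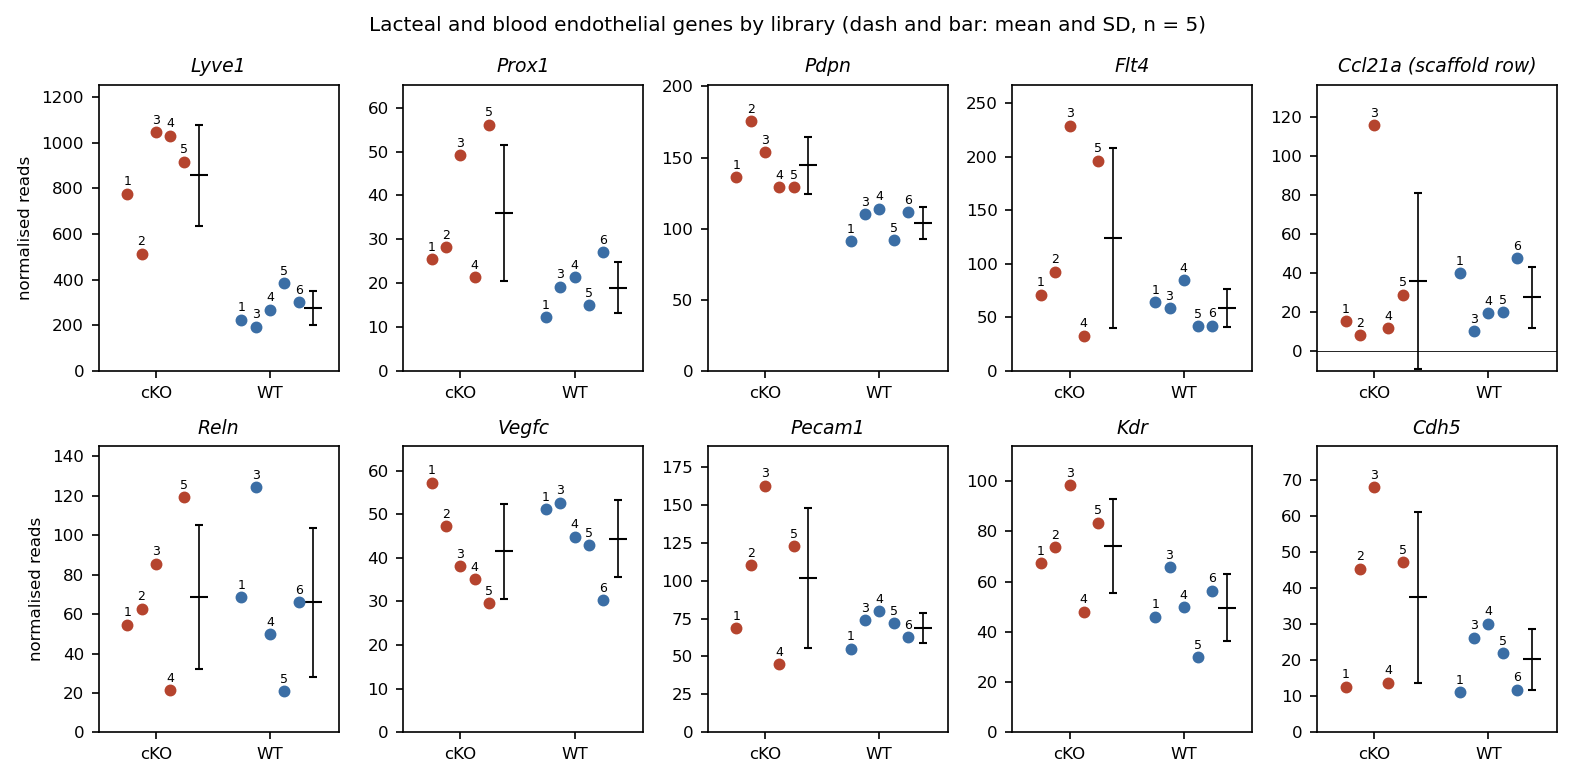
Normalised reads of each gene (vertical axes) in the 5 cKO libraries (red) and the 5 WT libraries (blue), numbered as in the labels, with a dash and bar for the mean and SD. Lyve1 and Pdpn are the genes whose groups do not overlap, and cKO 3 and cKO 5 hold the highest values of Prox1, Flt4, Pecam1, Kdr and Cdh5.

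Lyve1 was the only member past an adjusted p of 0.05, that is 1 of 10 table rows tested. Of all genes tested 1.32% passed in either direction, 0.441% higher and 0.882% lower in cKO. It was also the only member past this threshold in edgeR with TMM factors, where 1.29% of genes passed. The 10 symbols gave 11 rows, since Ccl21a is listed at 2 places, and the Ccl21a row of chromosome 4 was too low to be tested. Fitted differences were positive for 8 of the 10 rows, with a median of 0.53 on the log2 scale, against a median of 0.010 over all genes tested. Without cKO 3 and cKO 5 the median of the 10 rows was 0.093 and that of all genes tested 0.011. Lyve1 again was the only one of them to pass, where 0.399% of genes did and 0.185% were higher in cKO.

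**Figure D2:**
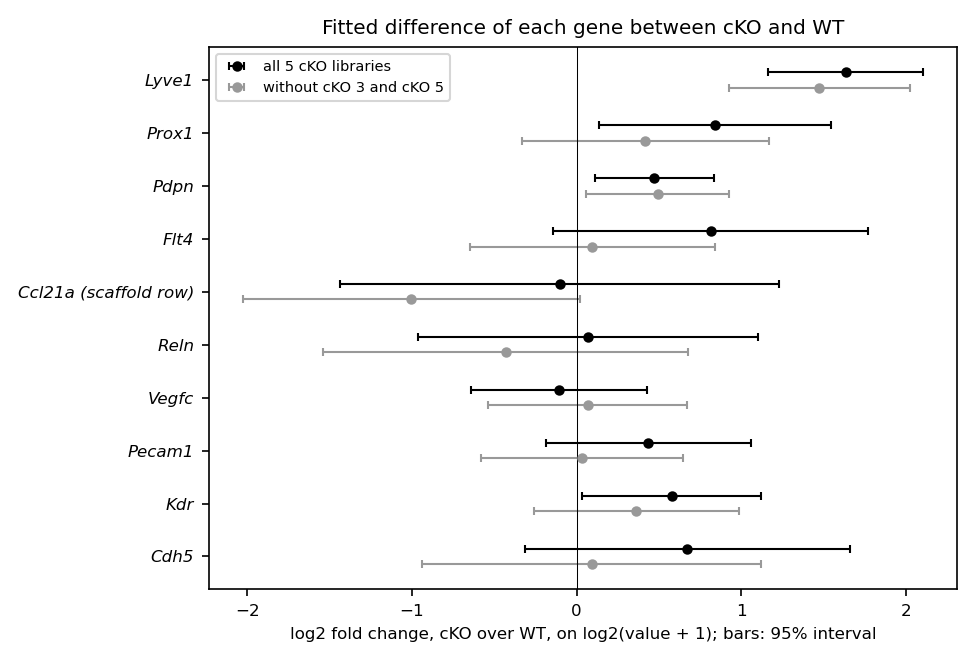
Fitted log2 fold change of cKO over WT (horizontal axis) for each gene (vertical axis), with 95% intervals, from all libraries (black) and without cKO 3 and cKO 5 (grey). The Lyve1 interval runs from 1.16 to 2.10 with all libraries; Flt4, Pecam1 and Cdh5 are at 0.096, 0.032 and 0.091 without cKO 3 and cKO 5.

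Prox1, the transcription factor that sets and keeps lymphatic identity (chromosome 1, 190118035 to 190170714), was a low gene in all libraries. It had 25.4, 28.2, 49.1, 21.3 and 56.1 normalised reads in cKO 1 to 5, and 12.3, 19.2, 21.4, 14.96 and 27.1 in WT 1, 3, 4, 5 and 6. The values of cKO 3 and cKO 5 were the highest, and those of cKO 1 and cKO 4 lay within the WT range. The log2 fold change was 0.84 ± 0.33 (SE, limma adjusted p = 0.195), and 0.42 without cKO 3 and cKO 5 (limma adjusted p = 0.644). Between 12 and 70 reads per library stood behind these values.

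Pdpn encodes podoplanin, a membrane glycoprotein of lymphatic endothelium that fibroblastic reticular cells and mesothelium also carry (chromosome 4, 143267431 to 143299564). Its values in cKO 1 to 5 were 136, 176, 154, 129 and 129 normalised reads, and in WT 1, 3, 4, 5 and 6 they were 91.0, 110, 114, 91.8 and 112. The groups did not overlap. With Lyve1 this made 2 of 10 rows tested with no overlap, where 4.87% of all genes tested showed none and 1.86% had all cKO values above all WT values. The log2 fold change of Pdpn was 0.47 ± 0.17 (SE, limma adjusted p = 0.161), and it was 0.49 without cKO 3 and cKO 5.

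Cells other than lymphatic endothelium that carry Pdpn had the following values in the same libraries. Of 12 genes of fibroblasts and reticular cells, Col3a1 and Col1a1, which encode fibrillar collagen chains, rose 1.69-fold (limma adjusted p = 0.0357) and 2.03-fold (limma adjusted p = 0.0426). None of the 12 passed as lower. Fitted differences were positive for 10 of them, and negative for Cxcl13 and Foxl1, at -0.98 and -0.22 on the log2 scale. The summed level of that list was 8910 to 14274 normalised reads in cKO and 6313 to 8341 in WT. Without cKO 3 and cKO 5 the fitted folds were nearly as large, 1.65 for Col3a1 and 1.84 for Col1a1, but neither gene passed (limma adjusted p = 0.109 and 0.193). Both calls were also lost without cKO 3 alone or without any one of WT 1, WT 3, WT 4 and WT 5, and that of Col1a1 without cKO 5 alone. None of 8 tested genes of mesothelium and mesenteric fat passed. Msln, the mesothelial surface protein gene mesothelin, averaged 394 ± 136 in cKO and 233 ± 37.2 in WT (SD, n = 5 each; log2 change 0.68, limma adjusted p = 0.162, and 0.94 without cKO 3 and cKO 5). The part of these cells in the Pdpn values was not tested.

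Flt4, the receptor for VEGF-C on lymphatic endothelium (chromosome 11, 49609263 to 49652739), spread widely among the cKO libraries. It had 71.2, 92.8, 229, 33.0 and 196 normalised reads in cKO 1 to 5, and 64.4, 58.7, 84.8, 41.9 and 42.2 in WT 1, 3, 4, 5 and 6. The cKO group held the highest values (cKO 3 and cKO 5) and the lowest one (cKO 4) of all 10 libraries. The log2 fold change was 0.81 ± 0.44 (SE, limma adjusted p = 0.345), and 0.096 without cKO 3 and cKO 5.

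Vegfc, which encodes the growth factor VEGF-C made by stromal and smooth muscle cells around the lacteal, showed no such spread. It had 57.2, 47.3, 38.05, 35.2 and 29.7 normalised reads in cKO 1 to 5, and 51.1, 52.7, 44.8, 42.9 and 30.3 in WT 1, 3, 4, 5 and 6. The ranges almost coincide, with a log2 fold change of -0.11 and a 95% interval of -0.64 to 0.43 (limma adjusted p = 0.854). The sign was positive without cKO 3 and cKO 5, at 0.066. Vegfc lies on chromosome 8, from 54077606 to 54187096.

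Reln encodes reelin, a large secreted glycoprotein best known for guiding neurons and also made by lymphatic endothelium (chromosome 5, 21884454 to 22344702). It had 54.7, 62.8, 85.6, 21.3 and 119 normalised reads in cKO 1 to 5, and 68.5, 125, 49.7, 20.9 and 66.1 in WT 1, 3, 4, 5 and 6. The groups overlapped over nearly their whole range. The log2 fold change was 0.069 (limma adjusted p = 0.952), and -0.43 without cKO 3 and cKO 5. None of 5 genes of the reelin pathway passed. Dab1, the adaptor that reelin receptors signal through in neurons, had 890 and 1154 normalised reads in cKO 3 and cKO 5, 212 to 447 in the other cKO libraries and 199 to 346 in WT.

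The blood endothelial genes ran through the cKO libraries in much the same order as Flt4. Pecam1, an adhesion molecule of endothelial junctions (chromosome 11, 106654217 to 106750628), had 68.7, 110, 162, 44.8 and 123 normalised reads in cKO 1 to 5, and 55.2, 73.9, 79.9, 71.8 and 62.8 in WT 1, 3, 4, 5 and 6. Kdr (chromosome 5, 75932827 to 75978458) had 67.4, 73.7, 98.3, 48.0 and 83.4 in cKO 1 to 5, and 46.0, 65.8, 49.7, 29.9 and 56.3 in WT 1, 3, 4, 5 and 6. Cdh5, the gene of VE-cadherin, the main cadherin of endothelial junctions (chromosome 8, 104101625 to 104144511), had 12.7, 45.5, 68.2, 13.9 and 47.3 in cKO 1 to 5, and 11.3, 26.3, 30.2, 21.9 and 11.9 in WT 1, 3, 4, 5 and 6. In each of these genes the cKO libraries ran, from the highest down, cKO 3, cKO 5 and cKO 2, with cKO 1 and cKO 4 below them.

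None of the blood endothelial genes passed the test. The log2 fold changes were 0.44 ± 0.29 for Pecam1 (SE, limma adjusted p = 0.442), 0.58 ± 0.26 for Kdr (limma adjusted p = 0.243) and 0.67 ± 0.46 for Cdh5 (limma adjusted p = 0.453). Without cKO 3 and cKO 5 they were 0.032, 0.36 and 0.091. Counting error is large for Cdh5, which rested on 10 to 86 reads per library.

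For 5 of the 10 rows tested (Prox1, Flt4, Pecam1, Kdr and Cdh5) cKO 3 and cKO 5 held the highest values of all 10 libraries, where 5.4% of all genes tested showed this. The normalised totals of these libraries, 13417113 and 15172430, were the lowest of the 10, against 15605280 to 20427114 in the others. When reads were scaled by library totals instead, 6 of the 10 rows and 17.3% of all genes tested showed it. The summed level of 10 epithelial genes was 254895 normalised reads in cKO 3 and 427671 in cKO 5, 416516 to 674906 in the other cKO libraries and 457191 to 576215 in WT. Of these genes 8 had negative fitted differences and none passed. The part of tissue makeup and of the clock in the endothelial values was not tested.

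Among endothelial genes outside the members, none of 15 tested lymphatic genes, 17 tested blood endothelial genes and 13 tested genes of lymphatic growth signalling passed. Their fitted differences were positive for 12, 13 and 9 genes, with medians of 0.25, 0.29 and 0.070 on the log2 scale, beside 0.010 over all genes tested. Without cKO 3 and cKO 5 these medians were 0.19, 0.21 and 0.30, beside 0.011. Erg, an ETS transcription factor of endothelial cells, had 21.6, 21.8, 77.7, 18.1 and 46.5 normalised reads in cKO 1 to 5, and 9.20, 13.2, 15.6, 7.98 and 12.99 in WT 1, 3, 4, 5 and 6. Its groups did not overlap, and its log2 fold change was 1.39 ± 0.40 (SE, limma adjusted p = 0.0929) and 0.78 without cKO 3 and cKO 5. Nrp2, the co-receptor of VEGFR-3, averaged 216 ± 93.6 in cKO and 122 ± 20.9 in WT (SD, n = 5 each; log2 change 0.74, limma adjusted p = 0.129, and 0.40 without cKO 3 and cKO 5). Piezo1, a mechanosensitive channel needed for lymphatic valves, averaged 97.8 ± 29.4 in cKO and 56.9 ± 7.45 in WT (SD, n = 5 each; log2 change 0.73, limma adjusted p = 0.112, and 0.62 without cKO 3 and cKO 5).

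The other ligands and receptors of the VEGF family gave mixed values. Vegfa, the ligand of VEGFR-2, had 1026, 1202, 516, 2065 and 1059 normalised reads in cKO 1 to 5, and 1646, 1478, 1977, 2167 and 2339 in WT 1, 3, 4, 5 and 6 (log2 fold change -0.83, limma adjusted p = 0.145, and -0.47 without cKO 3 and cKO 5). The lowest Vegfa value fell in cKO 3, the library with the highest Flt4, Pecam1, Kdr and Cdh5. That library also had the lowest summed level of the epithelial genes, 254895 normalised reads. How these values relate was not tested. Vegfd, a further ligand of VEGFR-3, averaged 58.6 ± 34.8 in cKO and 51.3 ± 10.4 in WT (SD, n = 5 each), with a log2 fold change of -0.073 (limma adjusted p = 0.944) whose sign was positive in edgeR and without cKO 3 and cKO 5, where it was 0.44. Flt1, which encodes VEGFR-1, was too low to be tested, at 6.36 to 11.7 normalised reads in cKO and 3.25 to 16.4 in WT. Tie1, an endothelial receptor kinase that modulates angiopoietin signalling, averaged 108 ± 35.5 in cKO and 70.9 ± 22.7 in WT (SD, n = 5 each; log2 change 0.61, limma adjusted p = 0.257, and 0.30 without cKO 3 and cKO 5).

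Aqp1, a water channel gene listed here with blood endothelium, averaged 2372 ± 983 normalised reads in cKO and 3724 ± 857 in WT (SD, n = 5 each; log2 change -0.72, limma adjusted p = 0.158, and -0.31 without cKO 3 and cKO 5). Its WT mean was 1417 per kilobase of gene length, against 11.0 for Pecam1. It was lowest in cKO 3 and cKO 5, at 1405 and 1480, where Pecam1, Kdr and Cdh5 were highest. Which cells carry the Aqp1 RNA was not tested.

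**Figure D3:**
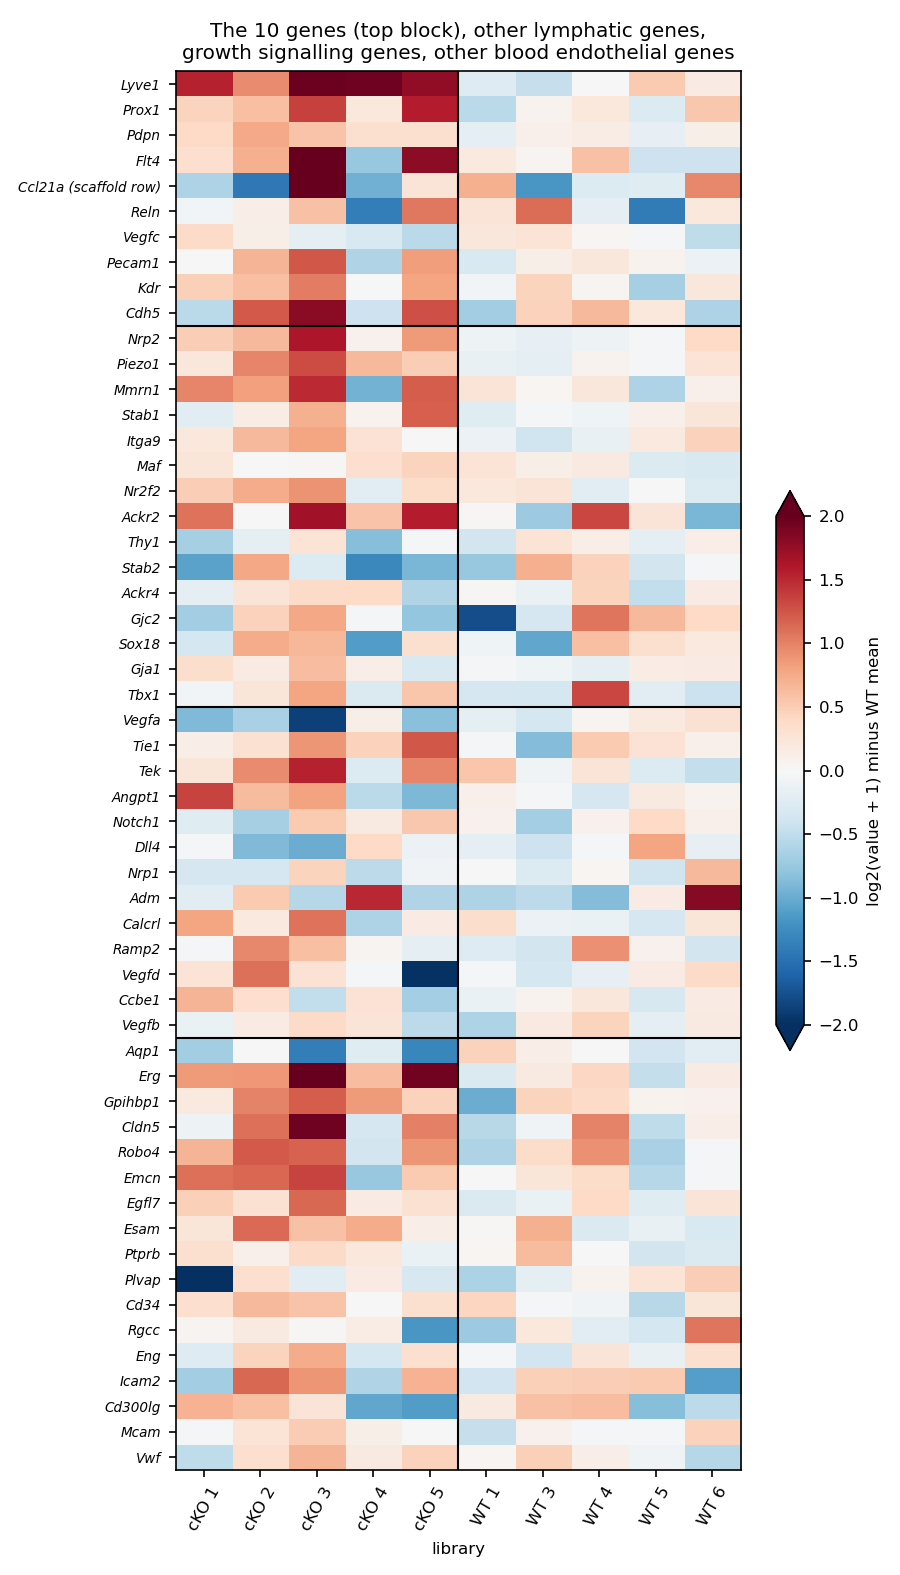
Log2(value + 1) of each gene (rows) in each library (columns, cKO left of WT) minus the WT mean of that gene, for the 10 rows tested and, below the black lines, the other lymphatic, growth signalling and blood endothelial genes tested. Lyve1 is red in all 5 cKO columns, whereas Flt4, Pecam1, Cdh5 and Erg are darkest in cKO 3 and cKO 5.

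The library pattern of Lyve1 differed from that of the blood endothelial genes. In cKO 4 Lyve1 reached 1030 normalised reads, while Flt4, Pecam1 and Cdh5 stood at 33.0, 44.8 and 13.9. Set within each library against the mean log2 level of Pecam1, Kdr and Cdh5, Lyve1 stood 4.27, 2.82, 3.33, 5.00 and 3.53 log2 units above it in cKO 1 to 5, and 2.82, 1.92, 2.42, 3.37 and 3.06 above it in WT 1, 3, 4, 5 and 6. The cKO mean of this difference was 3.79 ± 0.85 and the WT mean 2.72 ± 0.57 (SD, n = 5 each). They were 1.07 ± 0.46 (SE) apart, and the groups overlapped, with cKO 2 and cKO 3 below WT 5. No test was made, since the genes were chosen with this comparison known. Because Pecam1, Kdr and Cdh5 are not particular to blood vessels, the measure does not set lymphatic against blood endothelium. The same measure for Prox1 and Flt4 differed between groups by 0.28 ± 0.24 and 0.25 ± 0.29 (SE). For Pdpn, Reln and Vegfc it differed by -0.089 ± 0.30, -0.49 ± 0.44 and -0.67 ± 0.43. Over all 14062 genes tested the median of this difference was -0.55, so 0 is not the value of a typical gene.

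**Figure D4:**
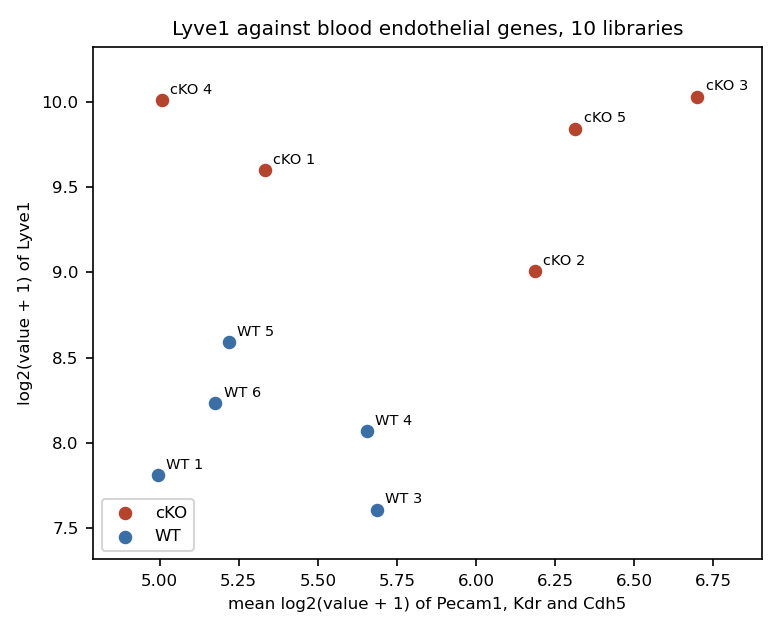
Lyve1 (vertical axis) against the mean of Pecam1, Kdr and Cdh5 (horizontal axis) in each library, both as log2(value + 1), for cKO (red) and WT (blue). All cKO points lie above all WT points, and cKO 4 pairs a high Lyve1 with a low blood endothelial mean.

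Lyve1 is also carried by some tissue macrophages. Of 13 tested genes of the macrophage list none passed as higher and 1 as lower, Mertk, which encodes a receptor for the uptake of dying cells. Mertk averaged 1072 ± 539 normalised reads in cKO and 2650 ± 414 in WT (SD, n = 5 each; log2 change -1.47, limma adjusted p = 0.0465). Without cKO 3 and cKO 5 its log2 fold change was -0.86, and the call was lost (limma adjusted p = 0.0659). It was also lost in edgeR with TMM factors, at -1.31 (adjusted p = 0.0575), and without any single library other than cKO 2 or cKO 4, at -1.68 to -1.20 over all 10 such fits. Mertk was lowest in cKO 3 and cKO 5, at 439 and 566 normalised reads. Adgre1 and Cx3cr1, 2 of the 13 tested genes, were highest in these libraries, at 197 and 202 and at 86.4 and 96.2. Their log2 fold changes were 0.40 and 0.51, and 0.14 and 0.19 without cKO 3 and cKO 5. Cd163 and F13a1, also tested, had 21.6 and 26.5 in cKO 5, their lowest cKO values, and 103 and 78.5 in cKO 3. Which cells carry the Mertk RNA was not tested. Timd4, a phosphatidylserine receptor of long-lived resident macrophages, had 24.2, 20.01, 52.3, 55.4 and 36.9 in cKO 1 to 5, and 14.3, 13.2, 17.5, 11.0 and 14.1 in WT 1, 3, 4, 5 and 6. Its groups did not overlap (log2 fold change 1.27 ± 0.33 SE, limma adjusted p = 0.0665, and 1.06 without cKO 3 and cKO 5). Mrc1, the macrophage mannose receptor, which lymphatic endothelium also carries, averaged 249 ± 32.4 in cKO and 184 ± 31.6 in WT (SD, n = 5 each; log2 change 0.44, limma adjusted p = 0.178, and 0.44 without cKO 3 and cKO 5). Folr2 was near 0, at 0.802 to 6.40 normalised reads in cKO and 0 to 2.17 in WT. Cd163 and F13a1 averaged 83.3 ± 35.4 and 62.9 ± 26.6 in cKO, and 60.5 ± 10.4 and 47.7 ± 15.5 in WT (SD, n = 5 each). Their log2 fold changes were 0.28 and 0.33 (limma adjusted p = 0.713 and 0.632), and 0.69 and 0.54 without cKO 3 and cKO 5. Some other genes of the list, at higher levels than Timd4 and Mrc1, showed little or no rise. The log2 fold changes of C1qa, C1qb, C1qc, Csf1r and Lyz2 were -0.31, -0.0062, -0.12, 0.14 and 0.24. Without cKO 3 and cKO 5 they were -0.27, -0.068, -0.12, -0.0099 and 0.011. Fitted differences were positive for 9 of the 13 genes, with a median of 0.25, and of 0.14 without cKO 3 and cKO 5. The summed level of the macrophage list was 5708 to 6806 in cKO and 6151 to 9415 in WT. Leaving out Mertk, a choice made after its values were seen, the sums averaged 5285 ± 765 in cKO and 4903 ± 1092 in WT (SD, n = 5 each). Lyz2 alone averaged 2402 ± 679 in cKO and 2053 ± 707 in WT, so these sums say little about the lower genes of the list. The part of macrophages in the Lyve1 values was not tested.

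The genes most like Lyve1 were sought by Pearson's r of log2(value + 1), after removal of each group's mean, over the 10 libraries and among genes with a mean of at least 50; this is a description, as the libraries share their size factors. They were Rrm2 (r = 0.95), a ribonucleotide reductase subunit gene, Plxna1 (0.94), a semaphorin receptor gene, Zfp512 (0.93), Gm3608 (0.91) and AI506816 (0.91). They are the 5 highest of 10488 genes searched over 10 libraries, where high r can arise between unrelated genes. That no endothelial gene of the lists was among them therefore says little. This limit also holds for the 5 genes named next. By the same measure the mean of Pecam1, Kdr and Cdh5 was most like Thy1 (0.95), the gene of a surface glycoprotein of T cells, fibroblasts and lymphatic endothelium, Kansl2 (0.95), Tent5c (0.94), Slc35b2 (0.93) and Zbtb42 (0.91). Against that mean, r was 0.87 for Flt4, 0.74 for Prox1, 0.64 for Reln and 0.55 for Pdpn. It was 0.35 for the scaffold row of Ccl21a, -0.12 for Vegfc and -0.15 for Lyve1.

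Per kilobase of the gene length given in the table, Lyve1 had the highest mean of the members in both groups, at 293 ± 75.4 normalised reads per kilobase in cKO and 94.0 ± 25.3 in WT (SD, n = 5 each). Pdpn had 79.6 ± 11.0 per kilobase in cKO and 57.1 ± 6.24 in WT, below Lyve1 in every library. The scaffold row of Ccl21a had 89.4 ± 113 per kilobase in cKO and 68.2 ± 39.0 in WT, and its place is not set by these libraries. It lay above Pdpn in 2 of 5 cKO and 2 of 5 WT libraries, and above Lyve1 in none of the cKO libraries and in 2 of 5 WT libraries. Its cKO mean rested on cKO 3, at 288 per kilobase, with a cKO median of 37.96 and a WT median of 49.6. In WT these 3 rows lay above all others, with no overlap between Pdpn and Vegfc, the next. The WT order then ran from Vegfc (16.9 ± 4.44 per kilobase in cKO, 18.1 ± 3.62 in WT) down through Pecam1, Flt4, Kdr, Cdh5 and Reln to Prox1 (4.30 ± 1.85 in cKO, 2.26 ± 0.69 in WT). The WT ranges of neighbours overlapped, so the order of neighbours is not set by these libraries. Genes further apart could be told apart. The lowest WT value of Vegfc, 12.4, lay above the highest of Flt4, 10.3, and that of Pecam1, 8.87, above the highest of Kdr, 7.29.

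Ccl21a encodes the chemokine CCL21, which draws dendritic cells and T cells that carry the receptor CCR7 towards lymphatic vessels. The mouse genome holds several near-identical copies of this gene, and 2 of those on chromosome 4 are shown because they bear on how far reads can be told apart. The coding sequence of the chromosome 4 copy of Ccl21a and that of the copy Gm10591 are 402 bases long and 99.5% identical. Counted from 1 at the start codon, they differ by T84A and C194T, with the Ccl21a base first. The coding sequences of Gm10591, Gm13304, Ccl21b and Gm21541 do not differ, and the scaffold rows were not compared. The stretches that hold the differing bases, from GENCODE M21 transcripts on GRCm38 and read 5′ to 3′ on the coding strand, are shown with the differing base in capitals.
Ccl21a, coding bases 61 to 105: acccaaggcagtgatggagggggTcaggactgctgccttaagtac
Gm10591, coding bases 61 to 105: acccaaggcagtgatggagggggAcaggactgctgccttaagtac
Ccl21a, coding bases 172 to 216: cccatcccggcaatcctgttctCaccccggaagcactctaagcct
Gm10591, coding bases 172 to 216: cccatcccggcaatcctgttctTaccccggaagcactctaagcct

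A read that covers neither base therefore cannot be assigned to 1 copy from its coding sequence. The chromosome 4 row of Ccl21a (42772860 to 42773993, minus strand) was listed at 0 in all 5 cKO libraries and in 4 of the 5 WT libraries, and had 3 reads (3.07 normalised reads) in WT 1. The row named Ccl21a on an unplaced scaffold had 15.3, 8.19, 116, 11.7 and 28.9 normalised reads in cKO 1 to 5, and 39.9, 10.1, 19.5, 19.95 and 47.6 in WT 1, 3, 4, 5 and 6. Its log2 change was -0.10 (95% interval -1.44 to 1.23; limma adjusted p = 0.944), and the sign was positive in edgeR. Without cKO 3 and cKO 5 it was -1.01 (95% interval -2.03 to 0.018; limma adjusted p = 0.413). Gm10591 (chromosome 4, 42612195 to 42612860) had 14.0, 60.02, 8.72, 84.2 and 55.3 in cKO 1 to 5, and 1.02, 2.03, 39.0, 9.98 and 24.9 in WT 1, 3, 4, 5 and 6 (log2 fold change 1.85, limma adjusted p = 0.294, and 2.20 without cKO 3 and cKO 5).

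The split between copies varied from library to library within both groups. The scaffold Ccl21a row took 38.7%, 11.8%, 90.7%, 12.2% and 34.0% of the reads of the 6 CCL21 rows in cKO 1 to 5, and 90.7%, 83.3%, 33.3%, 60.6% and 65.7% in WT 1, 3, 4, 5 and 6. Summed over the 6 rows the level was 83.4 ± 32.6 normalised reads in cKO and 44.0 ± 23.3 in WT (SD, n = 5 each), and the ranges, 39.4 to 128 in cKO and 12.2 to 72.6 in WT, overlapped. CCL21 is also made in lymphoid tissue of the gut wall. The B cell gene Ms4a1 had 1.07 to 12.02 normalised reads in cKO, and 517 in WT 5 against 1.95 to 28.4 in the other WT libraries. Summed over the 6 CCL21 rows, WT 5 had 32.9 normalised reads. The part of lymphoid tissue in the CCL21 reads was not tested.

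**Figure D5:**
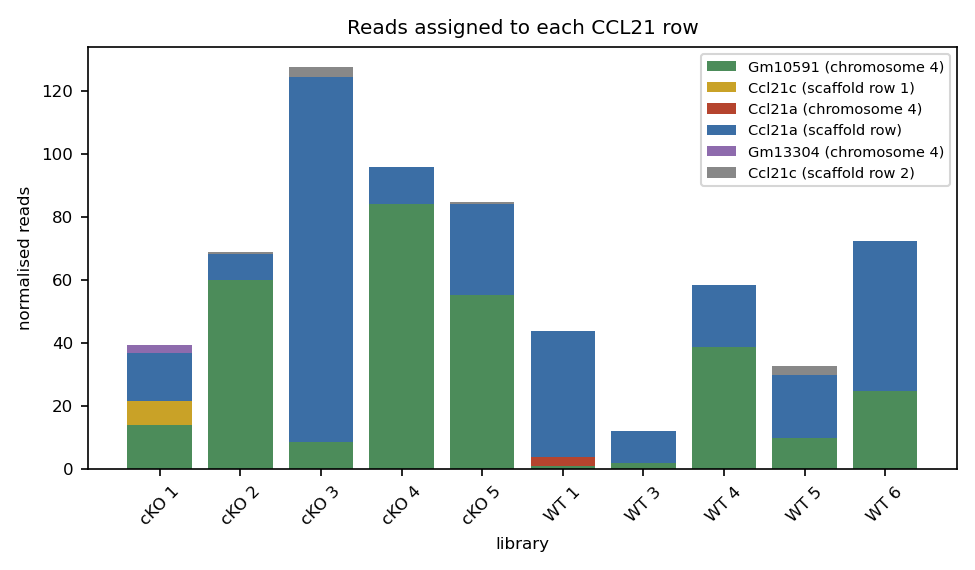
Normalised reads (vertical axis) assigned to each of the 6 CCL21 rows in each library (horizontal axis, cKO left of WT), stacked by row. The scaffold row of Ccl21a holds 90.7% of the bar in cKO 3 and in WT 1, and Gm10591 most of the bar in cKO 2 and cKO 4.

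Promoter sequences are given for Flt4 and Kdr, the VEGF receptor genes whose levels were highest together in cKO 3 and cKO 5. RefSeq promoters of GRCm38.p6, 300 bases around the RefSeq transcription start, were matched by symbol for 7 of the 10 genes, namely Prox1, Ccl21a, Pdpn, Reln, Kdr, Vegfc and Flt4. The Flt4 window lies inside the gene bounds given above, which begin at 49609263, so it does not hold the start given there. Capitals mark GGAA, the core bound by ETS factors such as Erg, on either strand (GGAA or TTCC); each sequence reads 5′ to 3′ on the strand of its gene.
Flt4, chr11:49609429-49609728, plus strand: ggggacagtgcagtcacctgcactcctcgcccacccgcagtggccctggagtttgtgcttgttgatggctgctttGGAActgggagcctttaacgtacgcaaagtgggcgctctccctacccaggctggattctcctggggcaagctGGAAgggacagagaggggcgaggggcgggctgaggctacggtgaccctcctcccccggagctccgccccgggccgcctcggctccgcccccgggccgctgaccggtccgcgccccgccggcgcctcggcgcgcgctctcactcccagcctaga
Kdr, chr5:75978406-75978705, minus strand: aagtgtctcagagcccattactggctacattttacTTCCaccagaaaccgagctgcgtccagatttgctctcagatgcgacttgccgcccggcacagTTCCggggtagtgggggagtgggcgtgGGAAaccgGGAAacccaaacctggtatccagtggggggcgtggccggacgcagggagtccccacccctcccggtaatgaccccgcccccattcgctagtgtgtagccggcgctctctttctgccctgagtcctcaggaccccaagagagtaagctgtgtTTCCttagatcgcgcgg

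The Flt4 promoter held 2 such cores and the Kdr promoter 5, where the median over 32851 promoters was 3 and 96.0% held at least 1. The E-box CACGTG, the same on both strands and bound by clock factors, was in neither. It was in the promoters of Pdpn and Reln, and in 7.15% of all promoters. A match is only a run of letters and shows no binding.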

How the data were processed

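The submitters' processing notes name CASAVA, HISAT2 2.0.5, the build mm10, featureCounts 1.5.0-p3 and DESeq2 1.20.0. The sources used here do not give the strand setting, the annotation release or how multiply matching reads were treated, so copies and overlapping genes may share reads. The deposited table holds a normalised signal per gene and library, read counts divided by a size factor, as found from the values: divided by the step of its library, each value was whole within 0.001. The authors' deposited table also holds, for each gene, its length in bases, a log2 fold change and p-values before and after adjustment. It has 2 further columns of per-sample values, which match no label and were not used.

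Values were tested as log2(value + 1) with limma 3.58.1 in R 4.3.3 (genotype only, intensity trend, robust), for genes with a mean of 10 or more, with Benjamini-Hochberg adjustment. Counts recovered from the deposited values served for edgeR 4.0.16 and DESeq2 1.42.0 as alternatives. The steps were tested on simulated data. Replicates of a group differed well beyond counting noise (chi-square over its degrees of freedom at least 21.5). Intervals are at 95%.

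The members, gene lists and alternatives were chosen with earlier results of these data known. Besides the members and the VEGF and CCL21 relatives, the rule named from each list the genes past the threshold, or those with the smallest p. The text names some of these. Ms4a1, Dab1, Folr2, Mrc1, Timd4, Tie1, Aqp1, Per2, C1qa, C1qb, C1qc, Csf1r, Lyz2, Adgre1 and Cx3cr1 were named after their values were seen. So were Cd163, F13a1, Cxcl13, Foxl1 and Nr1d1. The lists of neurons and glia and of smooth muscle held no gene past the test.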

Additional observations from a re-analysis of the deposited data

Results flagged for a closer look

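In 38 groups of 5 libraries, a library was picked out where its gap to the nearest other exceeded 0.71 of the group's range, which chance does in about 1 of 20 groups; this happened in 4. The scaffold row of Ccl21a had 116 normalised reads in cKO 3, with 28.9 in the next cKO library. The chromosome 4 row of Ccl21a had 3.07 in WT 1 and 0 in the other WT libraries. Nrp2 had 159 in WT 6, with 119 in the next WT library. Col3a1 had 1542 in WT 6, with 1189 in the next.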

How the results depend on the processing

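Lyve1 passed in all 22 alternatives that refitted it, with log2 fold changes of 1.47 to 1.85 and adjusted p of 7.25e-09 (DESeq2) to 0.0225 (without cKO 3 and cKO 5), and it remained the only member past the threshold in each, and at an adjusted p of 0.1. The count over all genes, 186, was 750 in DESeq2, 88 in the 8 libraries with shared numbers, 56 without cKO 3 and cKO 5 and 512 at an adjusted p of 0.1; with 1 library left out it ran from 30 (without WT 4) to 611 (without cKO 4), and it was 65 without cKO 3, 111 without cKO 5, and 94, 43, 67 and 60 without WT 1, 3, 5 and 6. The 186 were 62 higher and 124 lower in cKO; with library totals in edgeR, 86 were higher and 74 lower, and the median of all genes was 0.14. The replicate block gave 130 genes. Same-numbered libraries did not deviate together (r = 0.12, 0.022, -0.11 and 0.096 for numbers 1, 3, 4 and 5, and 1 of 8 libraries was most like its own number), so the numbers were not taken as pairs.

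Signs turned in genes whose intervals span 0. The scaffold Ccl21a row gave 0.44 in edgeR with TMM factors, 0.41 in DESeq2, 0.69 with library totals and 0.47 in the libraries with shared numbers, with or without the block, -0.69 to 0.23 with 1 library left out, and -1.01 without cKO 3 and cKO 5. Reln gave -0.43 without cKO 3 and cKO 5, and -0.28 to 0.43 with 1 left out; Vegfc gave 0.066 and -0.23 to 0.0017. Vegfd gave 0.20 in edgeR and in DESeq2, 0.31 with library totals, 0.44 without cKO 3 and cKO 5, and -0.37 to 0.40 with 1 left out. The cause was not tested. The difference between Lyve1 and the blood endothelial mean was 0.77 to 1.31 with 1 library left out. Reads of 10 to 86 per library limit Cdh5, and 12 to 70 limit Prox1.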
